A study of Mus musculus with 11 samples.

Results

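Genes that give epithelial cells their adhesion, their tight junctions and their apical side were followed across 3 embryonic mouse tissues. The 9 genes are Epcam, the claudin genes Cldn3, Cldn4, Cldn6 and Cldn7, the occludin gene Ocln, the apical polarity gene Crb3, and the regulators Grhl2 and Esrp1. They are known epithelial genes chosen by their ratios on these same arrays, in particular high ratios in neuroepithelium, so their ratios in the tissues are a description and support nothing by themselves. Each of the 9 had 1 probe with a single gene symbol, and all 9 probes had values, out of 19938 genes and 21789 such probes. Gene expression was measured on 11 Affymetrix mouse gene arrays: neuroepithelium had 3, neural crest 5 and paraxial mesoderm 3. All came from CD1 outbred embryos at E8.5, with no allele or treatment named in the labels, which were frozen, sectioned and laser-captured, and the RNA was amplified before labelling. The series title speaks of single cells, but how many cells or which embryo lay behind an array is not stated in the labels.

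The deposited value is a linear ratio of an array to a reference value of the same probe that lies near the median of the arrays. A ratio near 1 therefore says that an array resembles most others, whether the gene is silent or active in all of them, and ratios carry no expression level. In captured tissue, fewer cells of a type and less RNA per cell cannot be told apart. An array is called high for a gene at a ratio of at least 4, a limit taken with the values known. The share of all probes that were high ran from 1.83% to 7.88% over the 11 arrays, both extremes in paraxial mesoderm. Of 6 defining markers of each tissue, 1 was high on any neuroepithelium array, against 9.52% of all probes. It was Otx2, high on array 3 and also on paraxial mesoderm array 2. In neural crest 3 were high on at least 1 array, against 13.8% of all probes. Snai1 was high on all 5 crest arrays, and the markers high on crest arrays 1 to 5 numbered 1, 2, 1, 1 and 3. In paraxial mesoderm 0 were high, against 11.6% of all probes. No marker of paraxial mesoderm was thus high on the arrays with that label, and a ratio does not show whether such a gene was expressed. On paraxial mesoderm array 1 all 7 measured markers of primitive erythrocytes were high, and on the 10 other arrays 0 were. Paraxial mesoderm array 2 stood apart in epithelial genes, and values without it are given where it bears on a gene.

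Epithelial cells are held in sheets by junctions near their apical side. Claudins and occludin are membrane proteins of the tight junction, claudins forming its sealing strands, and Crb3 is a small transmembrane protein of the Crumbs complex, which marks the apical domain. Epcam is a homophilic adhesion molecule that binds and stabilises Cldn7. Grhl2 is a Grainyhead-like transcription factor that activates Cldn4, Cdh1 and other epithelial genes and is needed for neural tube closure in the mouse, and Esrp1 is a splicing factor that sets epithelial isoforms. Neural crest cells leave the neuroepithelium by an epithelial to mesenchymal transition, in which repressors such as Snai1 bind E-box sequences in epithelial promoters.

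The promoters of 4 members with high ratios on at least 2 neuroepithelium arrays are shown because those genes share an E-box. Each runs from 250 bases before to 50 bases after a RefSeq start site, 5′ to 3′ on the gene's strand, in the build GRCm38.p6. Capitals mark the motifs CAGGTG, read on either strand and so also as CACCTG, and ACCGGT, the core of the Grainyhead-like site AACCGGTT.
Epcam promoter, chr17:87635729-87636028, plus strand: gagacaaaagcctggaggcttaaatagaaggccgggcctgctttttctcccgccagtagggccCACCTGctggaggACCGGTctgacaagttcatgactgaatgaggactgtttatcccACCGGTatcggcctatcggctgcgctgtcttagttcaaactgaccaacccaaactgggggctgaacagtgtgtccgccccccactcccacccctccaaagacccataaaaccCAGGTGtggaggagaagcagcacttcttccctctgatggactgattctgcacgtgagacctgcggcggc
Cldn7 promoter, chr11:69965171-69965470, plus strand: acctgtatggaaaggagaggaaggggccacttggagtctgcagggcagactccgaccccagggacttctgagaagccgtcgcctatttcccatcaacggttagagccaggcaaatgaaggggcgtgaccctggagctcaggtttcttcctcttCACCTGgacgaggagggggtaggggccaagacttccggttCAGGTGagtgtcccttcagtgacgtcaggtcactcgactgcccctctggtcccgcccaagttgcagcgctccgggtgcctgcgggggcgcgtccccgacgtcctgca
Cldn4 promoter, chr5:134946885-134947184, minus strand: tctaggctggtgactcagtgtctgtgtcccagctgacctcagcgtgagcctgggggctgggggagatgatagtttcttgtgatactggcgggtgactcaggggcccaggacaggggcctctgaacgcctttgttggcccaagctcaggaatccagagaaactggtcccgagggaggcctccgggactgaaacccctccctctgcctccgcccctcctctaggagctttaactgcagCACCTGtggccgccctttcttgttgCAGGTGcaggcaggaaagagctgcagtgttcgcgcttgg
Crb3 promoter, chr17:57061951-57062250, plus strand: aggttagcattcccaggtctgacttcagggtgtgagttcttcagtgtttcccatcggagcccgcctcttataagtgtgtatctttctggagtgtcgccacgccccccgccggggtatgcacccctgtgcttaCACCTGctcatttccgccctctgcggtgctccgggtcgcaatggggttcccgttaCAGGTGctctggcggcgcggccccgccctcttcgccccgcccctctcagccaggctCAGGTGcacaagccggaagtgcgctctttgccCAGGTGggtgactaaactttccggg

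CAGGTG was found in a promoter window of 7 of the 7 members that the table holds (Epcam, Cldn3, Cldn4, Cldn6, Cldn7, Crb3 and Ocln). It occurred in 9 of their 10 windows, the exception being the first of the pair for Cldn7, but the 2 windows of Crb3 overlap, as do the 2 of Ocln, so that some copies are counted in both windows of a gene. Among all 32851 windows of that length 20.2% held it, and 22.6% of 27025 genes had it in any window. The member windows shown above had 57.0% (Epcam), 62.3% (Cldn7), 61.0% (Cldn4) and 62.3% (Crb3) G and C, against a median of 52.7% for all windows. ACCGGT occurred in 1 member window, that of Epcam, which held it at 2 places (first bases at -174 and -131 from the start site), against 2.33% of all windows with any copy and 0.0548% with at least 2. AACCGGTT was in 0 of the 10 windows and in 0.146% of all. No motif overlapped another in these windows. A match of letters does not show a bound site, and no match says only that the letters are not in the window.

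The members' ratios fell into separate ranges with little between them. Of 99 values, 79 lay between 0.717 and 1.38, 17 between 5.64 and 92.2, and only 3 in between, at 2.83 (Ocln), 2.86 (Cldn6) and 3.98 (Cldn4, just under the limit for high), all 3 in neuroepithelium. High values were found on all 3 neuroepithelium arrays and on paraxial mesoderm array 2. None of the 45 neural crest values was high, their range being 0.729 to 1.25. High on at least 1 neuroepithelium array were 8 of the 9 members, against 9.52% of all probes, and 8 were high there while high on no crest array, against 3.54%. High on exactly 1 neuroepithelium array were 4 (Cldn3, Cldn6, Grhl2 and Esrp1), against 7.47% of all probes. On at least 1 crest array 0 were high, against 13.8%, and on at least 1 paraxial mesoderm array 3, against 11.6%. Over all 11 arrays 8 were high at least once, against 21% of all probes, and 0 were ever 4-fold below their reference, against 5.3%. The choice of genes used these values, so these counts describe the list.

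**Figure D1:**
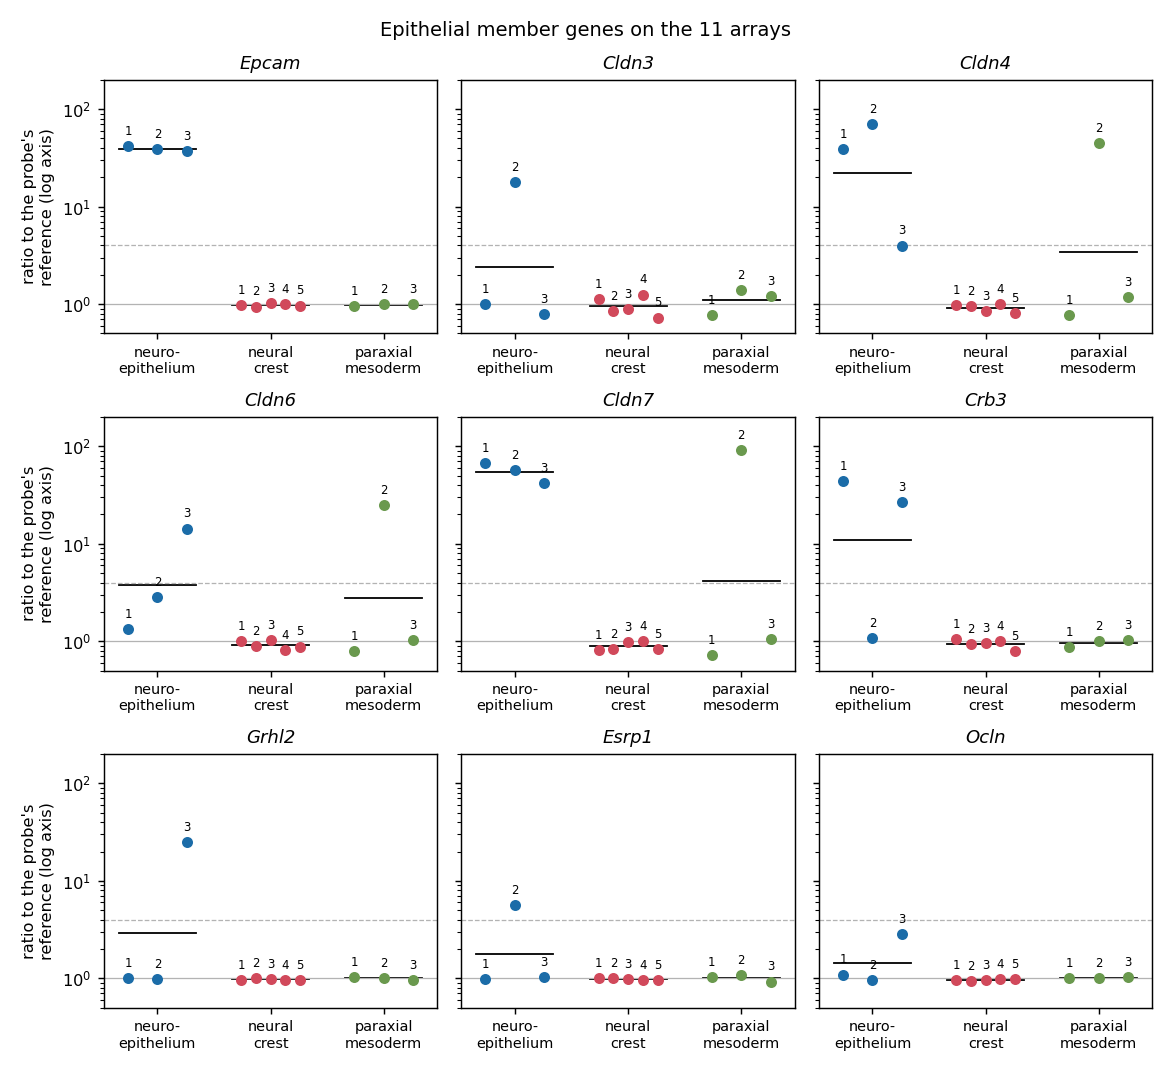
Ratio to the probe's reference (log axis) of each member on every array, in columns for neuroepithelium (n = 3), neural crest (n = 5) and paraxial mesoderm (n = 3). Points carry the array number, bars are geometric means, the solid line is a ratio of 1 and the dashed line a ratio of 4; Epcam is high on the neuroepithelium arrays alone, and Cldn4, Cldn6 and Cldn7 also on paraxial mesoderm array 2.

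Epcam (probe 10447383), the adhesion molecule, had ratios of 41.9, 38.8 and 37.4 in neuroepithelium. In neural crest it had 0.977, 0.944, 1.03, 1.01 and 0.967. In paraxial mesoderm it had 0.947, 1 and 1.00. The neuroepithelium arrays stood far above the 8 others with no overlap, and they differed little among themselves, with a coefficient of variation of 5.93% over the 3 arrays. The log2 difference was 5.32 against neural crest (SE 0.047) and 5.32 against paraxial mesoderm (SE 0.052). Epcam was 1 of 2 probes, of 21789, that were high on all 3 neuroepithelium arrays and under 2 on all 8 others. The other was a probe of Ypel1. That count depends on the limit of 2. Probes of Gm5617 and Anxa7 were also high on all 3 neuroepithelium arrays and reached at most 2.68 and 2.11 elsewhere. Epcam was listed with these values known, so its place here is a description.

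Cldn7 (probe 10377673), the claudin that Epcam binds, had ratios of 67.6, 57.5 and 42.0 in neuroepithelium. In neural crest it had 0.819, 0.831, 0.990, 1.00 and 0.832. In paraxial mesoderm it had 0.717, 92.2 and 1.05. The neuroepithelium and crest arrays did not overlap, whereas paraxial mesoderm array 2 exceeded every neuroepithelium array. High on all 3 neuroepithelium arrays were 2 of the 9 members, Epcam and Cldn7, against 0.307% of all probes (67 probes, of which 18 were also high on paraxial mesoderm array 2). The log2 difference of Cldn7 was 5.94 from neural crest (SE 1.36) and 3.74 from paraxial mesoderm (SE 1.52), and without paraxial mesoderm array 2 the difference from paraxial mesoderm was 5.98. Both SEs come from a spread pooled over all tissues. The SD of the log2 ratios of Cldn7 was 0.35 in neuroepithelium, 0.15 in neural crest and 3.90 in paraxial mesoderm. Epcam and Cldn7 thus parted on 1 array: on paraxial mesoderm array 2 Cldn7 was high and Epcam was at 1.

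Cldn4 (probe 10534395), a barrier-forming claudin, had ratios of 39.2, 69.6 and 3.98 in neuroepithelium. In neural crest it had 0.974, 0.962, 0.845, 1 and 0.816, and in paraxial mesoderm 0.774, 45.1 and 1.17. All neuroepithelium arrays lay above all crest arrays, with a log2 difference of 4.60 (SE 1.36), while paraxial mesoderm array 2 lay between neuroepithelium arrays 1 and 2. From paraxial mesoderm the difference was 2.68 (SE 1.52), and 4.54 without that array. Its neighbour Cldn3 (probe 10526241), with no other protein-coding gene between them in the RefSeq table, did not follow it. Cldn3 had 1, 17.7 and 0.784 in neuroepithelium, 0.729 to 1.25 in neural crest, and 0.773, 1.38 and 1.22 in paraxial mesoderm. Array 2 was thus the only one high for Cldn3, and its log2 difference from neural crest (1.34, SE 0.90) became -0.10 without that array. Over the 11 arrays the log2 ratios of the 2 neighbours had a Pearson correlation of 0.621.

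Cldn6 (probe 10442327), a claudin of embryonic epithelia, had ratios of 1.35, 2.86 and 14.3 in neuroepithelium. In neural crest it had 1, 0.891, 1.03, 0.813 and 0.882, and in paraxial mesoderm 0.801, 25.1 and 1.03. Neuroepithelium again lay above crest on every array, and the highest value was on paraxial mesoderm array 2. Its log2 difference was 2.05 from neural crest (SE 1.14) and 0.47 from paraxial mesoderm (SE 1.28), the second of which was 2.07 without paraxial mesoderm array 2. Cldn9, the next protein-coding gene beside Cldn6, was high on neuroepithelium array 3 (10.8), which it shared with Cldn6, and at 1 on paraxial mesoderm array 2, which it did not.

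Crb3 (probe 10446224), the Crumbs protein of the apical side, had ratios of 43.9, 1.07 and 26.9 in neuroepithelium. It had 1.05, 0.942, 0.957, 1 and 0.798 in neural crest, and 0.863, 0.995 and 1.04 in paraxial mesoderm. Neuroepithelium arrays 1 and 3 were high, and array 2 lay just above the highest of all other arrays. The log2 difference was 3.51 from neural crest (SE 1.02) and 3.49 from paraxial mesoderm (SE 1.14), and without neuroepithelium array 2 it was 5.18 and 5.16.

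The remaining members were each raised on 1 neuroepithelium array. Grhl2 (probe 10423770), the transcription factor, had 1.00, 0.976 and 25.0 in neuroepithelium and 0.954 to 1.04 elsewhere, so that array 3 alone was high (log2 difference from neural crest 1.57, SE 0.94, and 0.02 without that array). Ocln (probe 10411668), the occludin gene, had 1.10, 0.967 and 2.83 there and 0.940 to 1.03 elsewhere, and was the 1 member not high on any array. Esrp1 (probe 10511560), the splicing factor, had 0.993, 5.64 and 1.03 there and 0.928 to 1.08 elsewhere, with array 2 alone high. Without those arrays the log2 differences from neural crest were 0.09 for Ocln and 0.04 for Esrp1, against 0.57 (SE 0.30) and 0.87 (SE 0.50) with them. Ocln lies beside the tricellulin gene Marveld2, which stayed between 0.934 and 1.03 on all 11 arrays.

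By array, the members made different sets. Neuroepithelium array 1 was high for Epcam, Cldn4, Cldn7 and Crb3, array 2 for Epcam, Cldn3, Cldn4, Cldn7 and Esrp1, and array 3 for Epcam, Cldn6, Cldn7, Crb3 and Grhl2. Crb3 was high on arrays 1 and 3 and Cldn4 on arrays 1 and 2, while Grhl2, with which Ocln moved (Pearson correlation 0.991 over 11 arrays, resting on array 3), and Esrp1, with which Cldn3 moved (0.968, resting on array 2), were never high on the same array. Paraxial mesoderm array 2 was high for Cldn4, Cldn6 and Cldn7. The share of all probes high on these arrays was 3.52%, 2.85% and 5.51% in neuroepithelium and 3.90% on paraxial mesoderm array 2, while it was 1.97%, 5.6%, 5.13%, 2% and 7.33% on crest arrays 1 to 5, which had 0 members high. On paraxial mesoderm arrays 1 and 3, with 7.88% and 1.83%, 0 members were high.

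**Figure D2:**
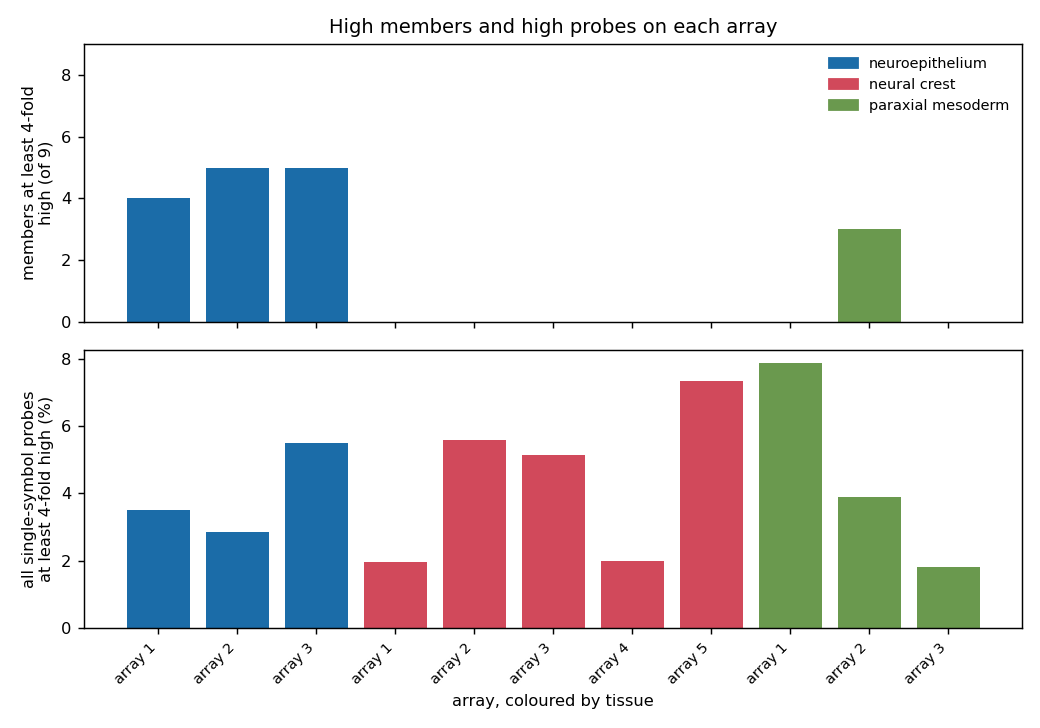
Number of the 9 members at a ratio of at least 4 on each array (upper bars) and the share of all 21789 probes at that ratio (lower bars, in percent), for neuroepithelium, neural crest and paraxial mesoderm. The members are high on the 3 neuroepithelium arrays (4, 5 and 5 of 9) and on paraxial mesoderm array 2 (3 of 9), and not on the arrays with the largest share of high probes.

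Arrays labelled neuroepithelium were compared with those labelled neural crest. The comparison is between captures as labelled and does not follow cells that leave an epithelium. Some surface ectoderm markers were high on the same neuroepithelium arrays, as given below, and the part of such cells was not tested. All 9 members had a positive log2 difference (median 2.05, against 0.00 over 21789 probes), and 5 (Epcam, Cldn4, Cldn6, Cldn7 and Crb3) had every neuroepithelium array above every crest array, against 1.54% of all probes. In limma, fitted over all single-symbol probes with Benjamini-Hochberg adjustment, 1 member (Epcam) passed at an adjusted p under 0.05, against 0.0184% of all probes called higher and 0.0275% called in either direction. The spread was pooled over all tissues, so an array of a tissue outside a comparison can widen its SE. When only neuroepithelium and neural crest were fitted, Cldn7 passed as well. Against paraxial mesoderm all 9 differences were again positive (median 1.54, against 0.00 over all probes), 2 members (Epcam and Crb3) did not overlap, against 3.97% of all probes, and 1 (Epcam) passed, against 0.0138%. Both comparisons share the neuroepithelium arrays and were known when the genes were listed, so nothing is read from these counts. The labels do not say whether arrays of a tissue came from separate embryos, so limma's p-values reflect array-to-array spread, which may be technical, and are too small if embryos were shared.

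Neural crest was also compared with paraxial mesoderm, the tissue that the series title names beside it. The members had a median log2 difference of -0.06, against 0.00 over all probes, and 0 of 9 passed in limma (0 also at an unadjusted p under 0.05), against 0.00918% of all probes called. No member had all crest arrays above all paraxial mesoderm arrays, against 1.4% of all probes. The differences furthest from 0 were those of Cldn7 (-2.20, SE 1.36), Cldn4 (-1.91, SE 1.36) and Cldn6 (-1.58, SE 1.14). All 3 are high on paraxial mesoderm array 2, and without that array the differences were 0.04 for Cldn7, -0.06 for Cldn4 and 0.02 for Cldn6. Ocln was lower on every crest array than on every paraxial mesoderm array, by 0.06 on the log2 scale (SE 0.30), 1 of 9 members, against 1.24% of all probes, and was the only member with no overlap here. That SE pools all tissues. The SD of the log2 ratios of Ocln was 0.035 in neural crest, 0.021 in paraxial mesoderm and 0.85 in neuroepithelium.

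Paraxial mesoderm array 2 also stood apart in other epithelial genes. Of 12 surface ectoderm markers, 4 were high on that array (Krt8 at 34.4, Krt18 at 88.8, Krt19 at 65.0 and Dlx5 at 70.4), against 0 and 1 on paraxial mesoderm arrays 1 and 3. On neuroepithelium arrays 1, 2 and 3 the numbers were 3, 4 and 3, and over the 5 crest arrays 0 or 1. Of the 4 markers only Krt19 was high on paraxial mesoderm array 2 alone. Krt8 was also high on all 3 neuroepithelium arrays (33.9 to 35.2), neural crest array 3 (36.3) and paraxial mesoderm array 3 (30.5). Krt18 was also high on all 3 neuroepithelium arrays, and Dlx5 on neuroepithelium array 1 (75.1). The summed ratio of the 12 markers was 140 to 211 in neuroepithelium, 12.0 to 49.4 in neural crest and 10.4 to 267 in paraxial mesoderm, with the highest on array 2. The basal and stratified markers Krt5, Krt14 and Trp63 were high on no array. Gut endoderm markers (10 measured) were high on 0 neuroepithelium and 0 crest arrays, and 1 (Foxa2, at 7.64) was high on paraxial mesoderm array 3. Foxa2 is also a notochord marker, and of 6 notochord markers 2 (Foxa2 and Nog, the second at 9.63) were high on that array and 0 on the 10 others. The part of surface ectoderm or notochord cells in these ratios was not tested.

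Of genes outside the list, those most like the members in log2 ratio over the 11 arrays were found by Pearson correlation. For Epcam they were Ypel1 (0.994), Gm5617 (0.977), Anxa7 (0.955) and Mfsd10 (0.936), followed by a second Ypel1 probe (0.904) at ratios of only 1.18 to 1.38 in neuroepithelium. For Cldn7 the first was the simple epithelial keratin Krt18 (0.996), which had 91.6, 72.4 and 78.6 in neuroepithelium, 0.863 to 1.04 in neural crest, and 0.825, 88.8 and 1 in paraxial mesoderm. The next for Cldn7 were Lamb1 (0.932), Dnah9 (0.921), Olfr1168 (0.898) and Phldb2 (0.898), none of which exceeded 1.34 on any array. Krt18 was also close to Cldn4 (0.923), after the kinase gene Rps6ka3 (0.963) and Dlg4 (0.929), a scaffold gene that never exceeded 1.15. Wdr86 (0.892) and Fam50b (0.873) followed for Cldn4, neither above 1.56. For Cldn6 they were Tmem54 (0.969), Amer1 (0.965), Rrp36 (0.959), Vps26b (0.958) and Lyrm4 (0.956), all high on neuroepithelium array 3 and paraxial mesoderm array 2. For Crb3 they were Ercc6l (0.998), the arrestin gene Arrb2 (0.997), Stxbp3 (0.997), the oncofetal surface protein gene Tpbg (0.991) and Pcgf1 (0.972), each high on neuroepithelium arrays 1 and 3. These correlations describe 11 arrays of 3 tissues, and with most ratios near 1 they rest on the few arrays on which a member was high.

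Other genes linked to epithelium were taken from 7 lists with 93 measured genes and 98 probes. The lists cover junctions, adhesion, polarity, surface proteases and trafficking, regulators, and 5 repressors of epithelial genes. Without the repressors they hold 88 genes. Of the 98 probes, 71 (72.4%) stayed within 2-fold of their reference on all 11 arrays, against 71.9% of all probes, which is close to the background. By gene, 66 of the 93 stayed there with every probe, among them the adherens junction cadherin Cdh1 (0.996, 1.15 and 1 in neuroepithelium), the desmosomal plakin Dsp, the polarity genes Crb1, Crb2 and Pard6b, and the protease gene St14. High on at least 1 neuroepithelium array were 13 (14.0%, against 9.52% of all probes), among them the repressor gene Twist1, and 0 were high on all 3. Against neural crest 0 of the 93 were called higher in neuroepithelium by limma and 1 lower, against 0.0184% and 0.00918% of all probes. At an unadjusted p under 0.05 there were 4 in either direction. Against paraxial mesoderm 0 were called (4 unadjusted), against 0.0138% of all probes. Nothing is read from the unadjusted counts. Between neural crest and paraxial mesoderm 1 was called higher in crest and 0 lower, against 0.00918% and 0% of all probes. The 1 gene in both cases was Snai1, a repressor and not a junction or polarity gene.

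**Figure D3:**
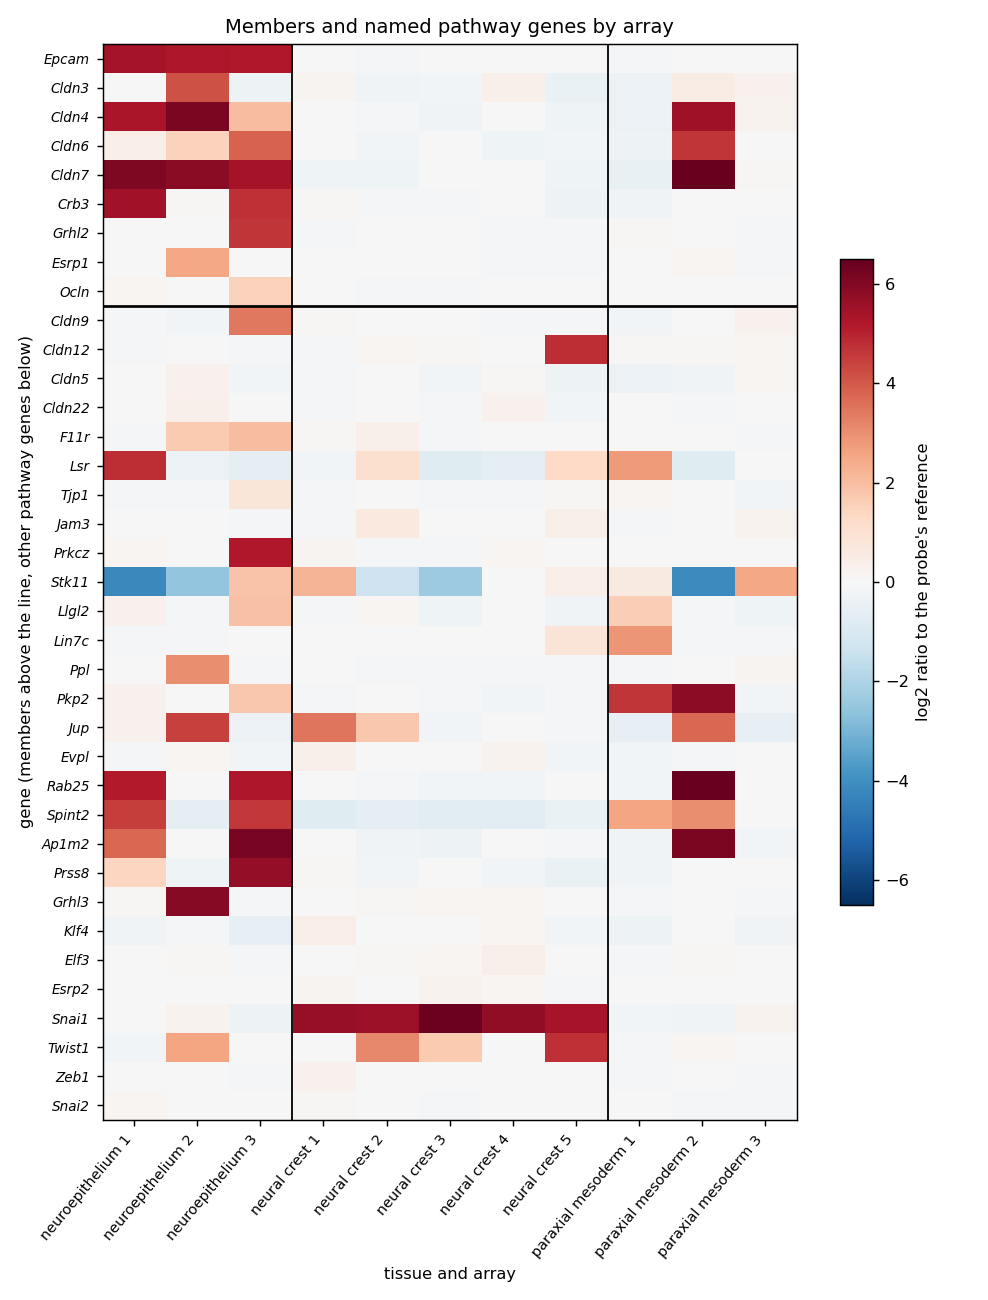
Log2 ratio to the probe's reference (colour scale, red above and blue below the reference) for the 9 members, above the line, and named genes of the 7 pathway lists, below it, in columns for neuroepithelium, neural crest and paraxial mesoderm arrays. Rab25, Spint2 and Ap1m2 are red on neuroepithelium arrays 1 and 3, like Crb3, and on paraxial mesoderm array 2, unlike it.

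Epithelial surface proteases, their inhibitors and trafficking genes were the list whose median difference was furthest above 0. Of its 12 genes 11 had a positive difference between neuroepithelium and neural crest, with a median of 1.39 on the log2 scale against 0.00 over all probes, and 0 passed in limma. High on at least 1 neuroepithelium array were 6 of the 12 (9.52% of all probes), on a crest array 0 (13.8% of all probes), and on a paraxial mesoderm array 4 (11.6% of all probes). The list was chosen with earlier results known. Rab25, a GTPase of apical recycling, had 36.1, 1.02 and 37.8 in neuroepithelium, 0.877 to 1 in neural crest, and 0.880, 84.6 and 1.01 in paraxial mesoderm. Ap1m2, the epithelial subunit of an adaptor for basolateral sorting, had 13.1, 0.988 and 72.8 in neuroepithelium and 68.4 on paraxial mesoderm array 2. Spint2, an inhibitor of surface serine proteases, had 22.6, 0.637 and 24.3 in neuroepithelium, 0.574 to 0.750 in neural crest, and 5.85, 8.14 and 1 in paraxial mesoderm. Prss8, the protease prostasin, reached 51.9 on neuroepithelium array 3. The log2 differences from neural crest were 3.58 (SE 1.67) for Rab25, 3.47 (SE 1.19) for Spint2, 3.40 (SE 1.67) for Ap1m2 and 2.43 (SE 1.08) for Prss8.

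Of 19 other claudins measured, 3 were high on any array, against 21% of all probes, and nothing is read from that count. They were Cldn9 on neuroepithelium array 3, Cldn12 on neural crest array 5 (28.2) and 1 of the 2 probes of Cldn10 on paraxial mesoderm array 3. Cldn5, the endothelial claudin, and Cldn22 had log2 differences from neural crest of 0.14 (SE 0.14) and 0.13 (SE 0.11). The median over 20 probes was -0.01, and 0 genes passed in limma in any of the 3 comparisons (lowest adjusted p = 1.00 in each).

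Tight junction scaffold and membrane genes had a median of 0.02 over 17 probes of 15 genes, with 0 called by limma. The junctional adhesion molecule gene F11r had 0.959, 3.20 and 3.98 in neuroepithelium, 0.949 to 1.25 in neural crest and 0.958 to 1.02 in paraxial mesoderm (log2 difference 1.15 from crest, SE 0.39). It passed against both tissues only when neuroepithelium array 1, its low array at 0.959, was left out. More probes were called over all then too. Lsr, the tricellular junction receptor gene, was high on neuroepithelium array 1 (28.0) and on paraxial mesoderm array 1 (6.79). Tjp1, the ZO-1 scaffold gene, and Jam3 had differences of 0.26 (SE 0.18) and -0.21 (SE 0.17).

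Polarity genes had a median of -0.01 over 22 probes of 20 genes, with 0 called by limma. Prkcz, an atypical protein kinase C of the apical Par complex, was high on neuroepithelium array 3 (37.0) and between 0.948 and 1.15 on the 10 others by 1 probe, while its second probe stayed between 0.693 and 1.53 on all 11 arrays. Llgl2, a basolateral polarity gene, had 1.20, 0.926 and 3.75 in neuroepithelium, 0.823 to 1.07 in neural crest and 3.07 on paraxial mesoderm array 1. Lin7c was high on paraxial mesoderm array 1 (7.41). Stk11, the LKB1 kinase gene, varied within every tissue, from 0.0544 to 3.61 in neuroepithelium, 0.198 to 4.61 in neural crest and 0.0559 to 5.64 in paraxial mesoderm.

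Desmosome and adhesion genes had a median of 0.05 over 11 genes, with 0 called by limma. Ppl, the periplakin gene, was high on neuroepithelium array 2 (8.10). Jup, the plakoglobin gene, was high on neuroepithelium array 2 (21.5), neural crest array 1 and paraxial mesoderm array 2 (13.4). Pkp2, a plakophilin gene, had 1.19, 1.00 and 3.31 in neuroepithelium, at most 1 in neural crest, and 25.1, 56.3 and 0.888 in paraxial mesoderm. Without paraxial mesoderm array 3 it passed as lower in both neuroepithelium and neural crest than in paraxial mesoderm. That array was the low one at 0.888, so only the high arrays 1 and 2 remained. Calls over all probes then rose to 40 against neuroepithelium and 45 against neural crest, from 3 and 2 with all arrays. Nothing is read from this pass. Evpl, the envoplakin gene, did not leave 0.877 to 1.25.

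Among epithelial regulators (11 genes, median -0.03, 0 called by limma), Grhl3, a relative of Grhl2 that also acts in neural tube closure, was high on neuroepithelium array 2 (60.0) and between 0.922 and 1.10 on the 10 others. Grhl2 and Grhl3 were thus high on different neuroepithelium arrays. Esrp2, the relative of Esrp1, stayed between 0.934 and 1.16. Klf4 and Elf3 had differences of -0.33 (SE 0.16) and -0.12 (SE 0.10).

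Of 5 repressors of epithelial genes, 1 passed. Snai1 had 1, 1.16 and 0.800 in neuroepithelium, 51.0, 47.0, 82.1, 54.9 and 41.2 in neural crest, and 0.890, 0.856 and 1.17 in paraxial mesoderm. It was lower in neuroepithelium than in crest by a log2 difference of -5.78 (SE 0.23, limma adjusted p = 1.0e-05) and higher in crest than in paraxial mesoderm by 5.80 (SE 0.23, limma adjusted p = 2.9e-05), on 5 of 5 crest arrays. With a variance prior that follows each probe's mean log2 ratio, Snai1 did not pass in either comparison. Twist1 had 0.874, 5.92 and 1.02 in neuroepithelium and 0.967, 8.79, 3.29, 1.01 and 27.3 in neural crest (-1.12, SE 1.15), and Zeb1 and Snai2 had -0.08 (SE 0.063) and 0.04 (SE 0.047). On paraxial mesoderm arrays 1 and 3 neither Snai1 nor any member was high.

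**Figure D4:**
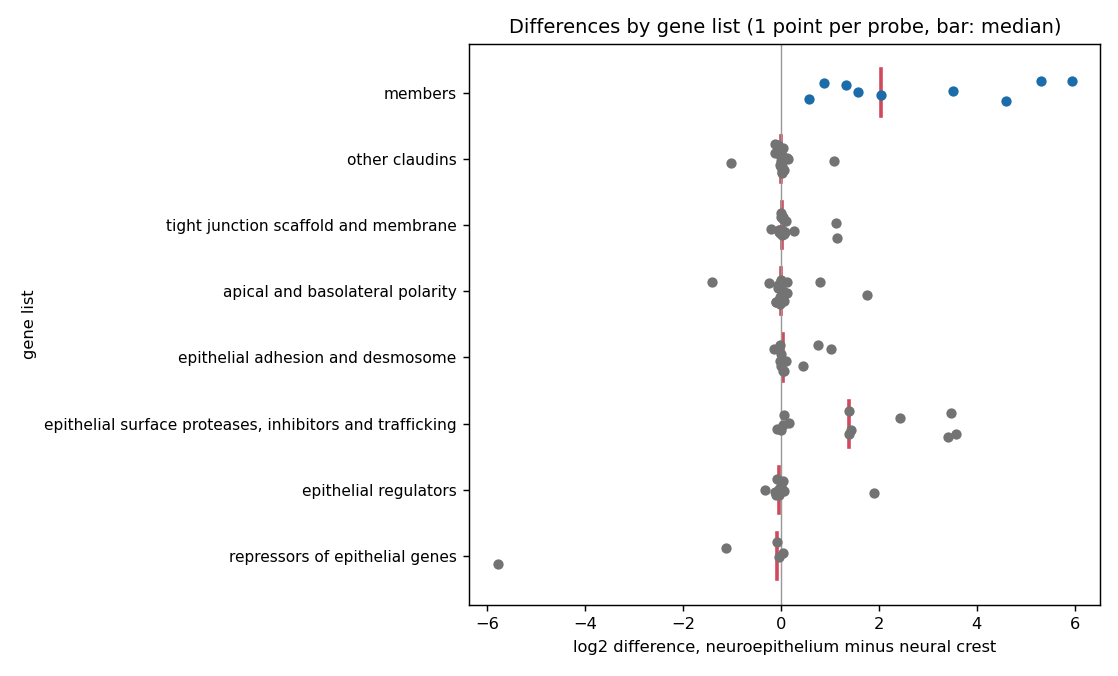
Log2 difference of every probe, neuroepithelium minus neural crest, for the members (top row) and 7 lists of other epithelial pathway genes, with a bar at each list's median. The members and the surface protease and trafficking genes have medians of 2.05 and 1.39, the other lists lie near 0, and Snai1 is the lowest point at -5.78.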

How the data were processed

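Gene expression was measured on 11 arrays of neuroepithelium, neural crest and paraxial mesoderm, grouped by sample title. The deposited values are linear ratios to a reference of each probe. RMA and the build mm9 are named without versions, per the submitters' processing notes. How the ratios were made, and any scan date or batch, was not stated by any label or file header. Values were present for 28856 of 35557 probes, the other 6701 being blank. A single symbol in the platform annotation was held by 21789, and 21698 of these matched RefSeq (GRCm38.p6) by Entrez identifier with 0 symbols changed. Probes without exactly 1 symbol (7067) were not tested. All 11 columns were used, and 0 were unmapped.

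Log2 ratios were fitted in limma 3.58.1 under R 4.3.3 with 3 group means over all 11 arrays and a common estimate of the spread. The eBayes step ran without a trend, since ratios carry no intensity for it to follow. In the alternative with a trend, the variance prior follows each probe's mean log2 ratio. Benjamini-Hochberg adjustment ran over 21789 probes in each comparison (two-sided, threshold 0.05), and a gene passed when any of its probes did. The lowest deposited ratio was 0.01, so no pseudocount was needed. The fit was run on simulated data with normal noise, equal spread in all tissues and a shift on all neuroepithelium arrays. The deposited ratios are often high on single arrays of a tissue, so that run checks the code and not the fit to these data. The number of arrays limits the precision.

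The members, the lists and the rules were chosen with earlier results of these data known. The members, every list gene that passed, and otherwise the 4 largest differences from neural crest per list were named, with the 5 probes most correlated with each member that was high on at least 2 arrays. Genes named beyond that (such as Cdh1, Dsp, Crb1, St14, Marveld2, Cldn10 and the markers) were chosen after their values were seen. Promoters are from RefSeq (GRCm38.p6), and 7 members matched. Alternatives covered the trend, the probe per gene, the probes tested, a pseudocount of 0.1, a 2-fold filter, quantile normalization, the arrays fitted, a replicate block and leaving out each array.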

Additional observations from a re-analysis of the deposited data

Results flagged for a closer look

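Within neural crest, the 5 values of 37 probes (members and named list genes) were examined for an array far from the other 4. Chance meets this check in about 1 of 20 groups, and 3 probes met it. Most list genes were named for a large difference between neuroepithelium and neural crest, which a single far crest array can enlarge. That rate therefore does not hold for them, and nothing is read from the count. Cldn12 reached 28.2 on neural crest array 5, where the other crest arrays had 0.932 to 1.08. Lin7c reached 1.80 on neural crest array 5, where the others had 0.977 to 1.02. Zeb1 reached 1.20 on neural crest array 1, where the others had 0.995 to 1.02. No member of the epithelial list met it.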

How the results depend on the processing

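With all arrays kept, 65 of 72 counts stayed within 1.5 times. The main counts of members and of other pathway genes were each 0 or 1, so an unchanged count there says little. With a trend on the mean log2 ratio, limma called 2 probes between neuroepithelium and neural crest (against 6). Between neural crest and paraxial mesoderm it called 0 (against 2, with 634 unadjusted). In both comparisons it called 0 other pathway genes (against 1, with 5 and 3 unadjusted). Fitting only the 2 tissues compared gave 10 probes and 2 members (Epcam and Cldn7) for neuroepithelium and neural crest, and quantile normalization gave 1 probe for neural crest and paraxial mesoderm. The cause was not tested. Leaving out 1 array gave 5 to 20 probes, 1 to 2 pathway genes and 1 to 2 members for neuroepithelium and neural crest, 3 to 40, 0 to 1 and 1 to 2 for neuroepithelium and paraxial mesoderm, and 1 to 45, 1 to 2 and 0 for neural crest and paraxial mesoderm. The highest counts, 40 and 45, came without paraxial mesoderm array 3, and the 20 without neuroepithelium array 2. Between neuroepithelium and neural crest, leaving out neuroepithelium array 1 or 3 or crest array 1 gave 15, 16 and 11. Between neuroepithelium and paraxial mesoderm, 11, 13 and 12 came without neuroepithelium arrays 1, 2 and 3, 5 without crest array 2, and 7 and 14 without paraxial mesoderm arrays 1 and 2. Between neural crest and paraxial mesoderm, 5 came without crest array 1, 1 without crest array 3 or neuroepithelium array 2 or 3, and 4 and 12 without paraxial mesoderm arrays 1 and 2. The second pathway gene was F11r without neuroepithelium array 1 and Pkp2 without paraxial mesoderm array 3. The second member was Crb3 without neuroepithelium array 2 and Cldn7 without paraxial mesoderm array 2. Of 378 recomputed member differences 362 moved by less than the residual SD of the probe, which single high arrays enlarge. A change of sign was counted only for called values, among members those of Epcam, and 0 changed sign. The difference of Cldn3 from neural crest, which was not called, did change sign without neuroepithelium array 2.

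With the replicate number as a block limma called 6, 2 and 3 probes in the 3 comparisons, 1, 0 and 1 pathway genes, and 1, 1 and 0 members. Deviations from the tissue means had correlations of -0.15 to 0.05 over the 9 pairs of same-numbered arrays from different tissues. Over the 30 pairs with different numbers they were -0.17 to 0.16. No pairing by number was seen, but such correlations cannot show whether same-numbered arrays shared an embryo.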
